A study of Mus musculus with 23 samples.

Results

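The Notch pathway genes examined here are 44 genes that encode the Notch receptors, their ligands, the enzymes that process them, the nuclear cofactors of the pathway and its Hes, Hey and Nrarp targets. Their loci were studied through the regions that NR5A2 binds. A region belonged to a gene when that gene had the nearest protein-coding span in the RefSeq gene table and lay within 50 kb of the midpoint of the region. By this rule 64 of the 16958 listed regions (mm10) belonged to 30 of the 44 genes. The rule used positions and gene names only and no measured value. The genes themselves were chosen with earlier results of these data known, among them a loss at Hes1. No region was found for Dll1, Dll4, Jag1, Rfng, Aph1a, Ncstn, Dtx1, Dtx3, Dtx4, Maml1, Hes5, Hes6, Hey1 and Hey2.

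Notch signalling passes between touching cells. A ligand of the Delta or Jagged family on 1 cell pulls on a Notch receptor of its neighbour, ADAM proteases and gamma-secretase then cut the receptor, and its intracellular part enters the nucleus. There it joins the DNA-binding protein RBPJ and Mastermind coactivators and switches on genes such as those of the Hes and Hey repressors. In the preimplantation mouse embryo the pathway is known for its part, together with Hippo signalling, in the outer trophectoderm lineage. NR5A2 belongs to the nuclear receptors and regulates genes by binding to DNA.

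Accessibility came from ATAC-seq of 8-cell mouse embryos, an assay whose transposase inserts adapters into open chromatin. The maternal-zygotic (mz) series held 13 embryos that lacked maternal and zygotic Nr5a2 (mz knockout) and 8 embryos labelled heterozygous (mz heterozygote), taken directly from the animal. The inducible series held 1 pool of embryos treated with 750 nM 4-hydroxytamoxifen for 24 h and 1 untreated pool, both of embryos collected 30 h post hCG as early 2-cell embryos and then kept 45 h in vitro. The labels give neither the targeted allele nor the Cre driver, do not explain the term Nrpp in the label of the untreated pool, and do not say whether the heterozygotes carried maternal Nr5a2. Tamoxifen was not given to embryos without the deletion among these samples, so the drug and the deletion cannot be told apart.

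The deposited table holds 1 merged RPKM value for each group and region, so no value of a single embryo stands behind any result. Whole reads could be recovered from these values, because all values of a column were multiples of the value of 1 read (0.359 RPKM in mz knockouts, 0.587 RPKM in mz heterozygotes, 0.170 RPKM in the treated pool and 0.163 RPKM in the untreated pool). The 64 regions held 367 reads in mz knockouts, 380 in mz heterozygotes, 675 in the treated pool and 1093 in the untreated pool. The median region of the 64 had 4 reads in mz knockouts and 4.5 reads in mz heterozygotes, against 8 reads in the treated and 15 reads in the untreated pool. The intervals and tests below compare merged libraries, not conditions, and cover counting error only. All 16958 regions were lower on balance, with ratios of summed RPKM of 0.668 for mz knockouts over heterozygotes and 0.694 for the treated over the untreated pool, and ratios of the Notch loci are therefore read against these values. As a check of other cells in the samples, regions near 6 of 17 cumulus and granulosa cell markers (10 regions) summed to 37.3 RPKM in mz knockouts and 45.2 RPKM in mz heterozygotes, and to 26.7 RPKM in the treated and 31.0 RPKM in the untreated pool, while the other 11 markers had no region. Regions near 8 of 9 early embryo markers (34 regions) summed to 85.0 RPKM in mz knockouts and 162 RPKM in mz heterozygotes, and to 72.0 RPKM in the treated and 122 RPKM in the untreated pool. Regions near 1 of 3 sperm markers (3 regions) had a mz ratio of 0.594 and an inducible ratio of 0.626. The part of such cells in the results was not tested, and fewer open cells cannot be told apart from less open DNA per cell.

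Over all 64 regions the summed level was 132 RPKM in mz knockouts, against 223 RPKM in mz heterozygotes, a ratio of 0.590 (exact 95% interval 0.509 to 0.682). In the inducible series it was 115 RPKM in the treated pool, against 178 RPKM in the untreated pool, a ratio of 0.644 (0.584 to 0.709). The median log2 ratio on the log2(RPKM + 1) scale, where changes at low regions come out too small, was −0.39 in the mz series and −0.54 in the inducible series, beside −0.32 and −0.35 over all regions. In an exact two-sided binomial test on the reads of each region, adjusted over the whole table by the Benjamini-Hochberg method at 0.05, 2 of the 64 regions were lower in mz knockouts (3.12%), beside 1.73% of all regions, and 0 were higher, beside 0.0236%. In the treated pool 4 of the 64 regions were lower (6.25%), beside 6.37% of all regions, and 0 were higher, beside 0.0767%. After adjustment the inducible share lay at the background of the table, and the mz share rested on 2 regions of a single gene, Hes1. A loss at Hes1 was known when the genes were chosen, so the mz share is no separate evidence. At an unadjusted p under 0.05, 9 of the 64 regions (14.1%) differed in the mz series, beside 12.6% of all regions. In the inducible series 20 of the 64 (31.25%) differed at that level, a larger share than the 20.5% of all regions.

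**Figure D1:**
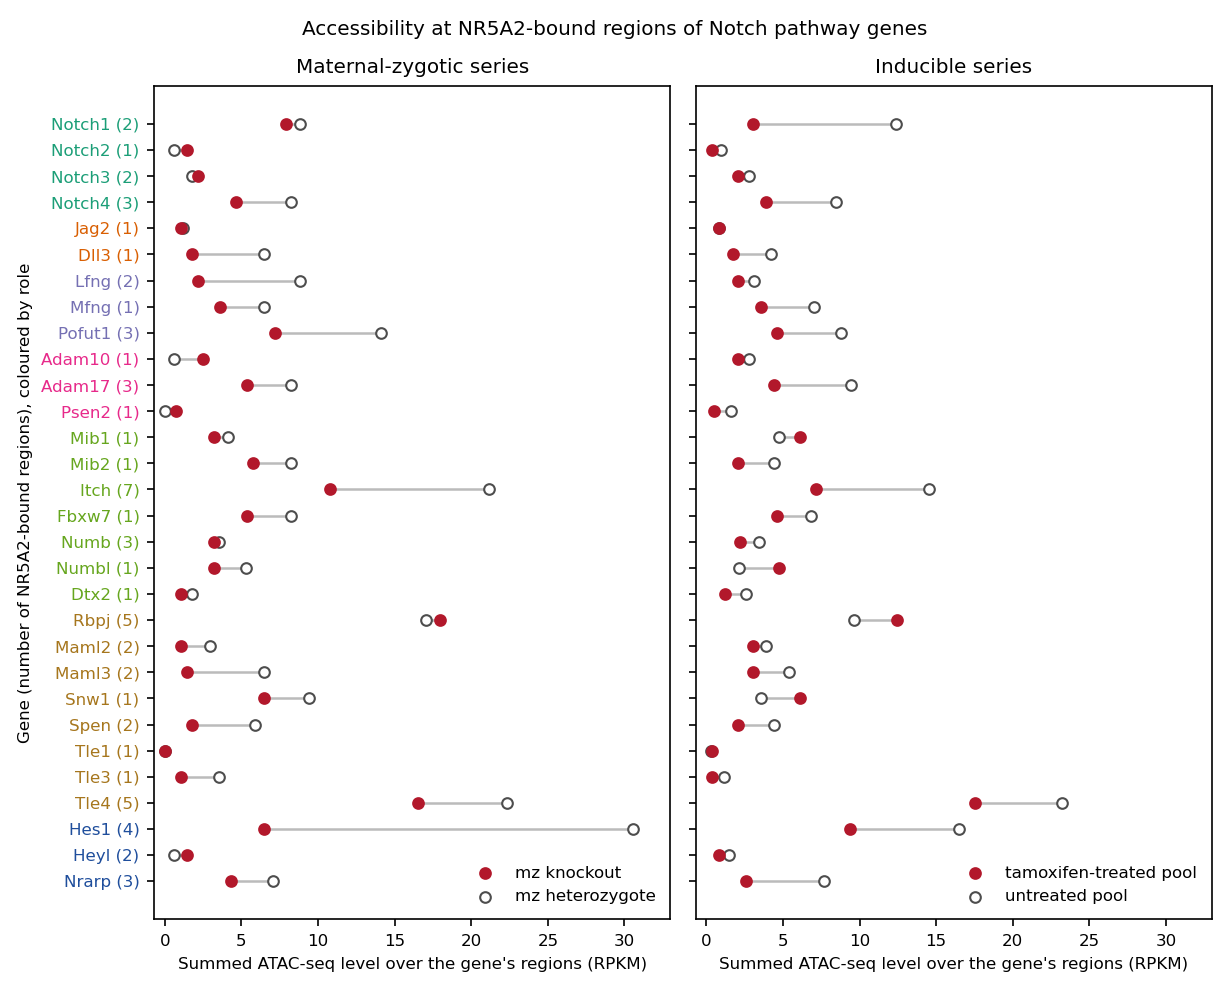
Summed ATAC-seq level (RPKM) over the NR5A2-bound regions of each of the 30 genes, mz series on the left and inducible series on the right. Filled points are mz knockouts or the treated pool, open points are mz heterozygotes or the untreated pool, each a single merged value without replicates. Hes1 has the widest gap in the mz series (6.46 against 30.5 RPKM), Notch1 in the inducible series (3.06 against 12.4 RPKM), and Rbpj is above its control in both.

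The targets of the pathway were the role group with the lowest mz ratio, 0.319 (0.204 to 0.491) over 9 regions, and their inducible ratio was 0.498 (0.373 to 0.660). That mz rank came from Hes1 and is not a trait of the targets in general. The mz ratio was 0.611 (0.251 to 1.49) at Nrarp and 2.44 (0.242 to 120) at Heyl. All of this group's calls lay at Hes1, which encodes a basic helix-loop-helix repressor that is a direct target of Notch in many tissues. Hes1 had 4 regions, all beside the gene and none inside it. Region 2 (chromosome 16, 30082184 to 30082368), 14.5 kb from the gene, had 2.51 RPKM in mz knockouts (7 reads) and 19.4 RPKM in mz heterozygotes (33 reads), and 3.40 RPKM in the treated pool (20 reads) and 7.51 RPKM in the untreated pool (46 reads). It was lower in mz knockouts (ratio 0.130, interval 0.0483 to 0.298, adjusted p = 4.82e-05, exact binomial test), and the treated pool was lower too (ratio 0.453, interval 0.254 to 0.782, adjusted p = 0.0455, exact binomial test). With the median log2 ratio of all regions set to 0, or their summed ratio set to 1, the mz call held and the inducible call was lost (adjusted p = 0.368 and 0.584, exact binomial test). This region has the highest level of the 64 in mz heterozygotes, and the loss there was known when the genes were chosen.

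Region 1 of Hes1 (chromosome 16, 30079616 to 30079911) lay 12 kb from the gene and 2273 bp from region 2. It had 1.43 RPKM in mz knockouts (4 reads) and 9.40 RPKM in mz heterozygotes (16 reads), and 3.91 RPKM in the treated and 5.88 RPKM in the untreated pool. The difference passed in the mz series (ratio 0.153, interval 0.0371 to 0.473, adjusted p = 0.0240, exact binomial test) and did not pass in the inducible series, where the ratio was 0.666 (0.377 to 1.16). The mz call of region 1 was lost under both scalings (adjusted p = 0.133 and 0.372, exact binomial test). The other two Hes1 regions, which the authors class as not accessible, were low in every column. Region 3, 22.8 kb from the gene, was at 1.08 RPKM in mz knockouts and 0 RPKM in mz heterozygotes, where a count of 0 allows up to 1.76 RPKM (the value of 3 reads), and at 1.02 RPKM in the treated and 2.12 RPKM in the untreated pool. Region 4, at 40.8 kb, was at 1.43 RPKM in mz knockouts and 1.76 RPKM in mz heterozygotes, and at 1.02 RPKM in the treated and 0.979 RPKM in the untreated pool.

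Summed over its regions, Hes1 had a mz ratio of 0.211 (0.116 to 0.367) and an inducible ratio of 0.568 (0.401 to 0.796). Hes1 accounted for 26.3% of the RPKM lost by the 64 regions in mz knockouts, and for 11.2% of the loss in the treated pool. Without Hes1 the remaining 60 regions had a mz ratio of 0.650 (0.557 to 0.758) and an inducible ratio of 0.652 (0.588 to 0.721), with 0 regions called in the mz series and 3 in the inducible series. Whether the 2 series differed at these regions was tested on the reads of all 4 columns (exact test on the noncentral hypergeometric distribution). It gave an exact p of 0.0124 for region 2 and 0.0166 for region 1 before adjustment, and adjusted p = 0.991 and 1, so a difference was not shown. The labels also give the 2 series different dates, which cannot be told apart from the kind of deletion.

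The other targets had fewer reads. Nrarp, which encodes an ankyrin repeat protein that feeds back on Notch signalling, had 3 regions, all classed as not accessible. The most accessible, 30.0 kb from the gene (chromosome 2, 25150663 to 25150857), had 2.51 RPKM in mz knockouts and 4.11 RPKM in mz heterozygotes, and 1.36 RPKM in the treated and 4.08 RPKM in the untreated pool. The inducible ratio of this region was 0.334 (0.130 to 0.763, adjusted p = 0.0623, exact binomial test). A neighbour 832 bp away had 0.340 RPKM in the treated and 2.29 RPKM in the untreated pool (adjusted p = 0.0584, exact binomial test). Neither passed over the whole table, while the summed Nrarp ratio in the inducible series was 0.333 (0.173 to 0.606). Heyl, a Hes-related repressor gene, had 2 regions with at most 1.08 RPKM in the mz columns and 1.31 RPKM in the inducible columns. The nearer one, 1.08 kb from the gene, had 1.08 RPKM in mz knockouts and 0.587 RPKM in mz heterozygotes, and 0.340 RPKM in the treated and 1.31 RPKM in the untreated pool.

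**Figure D2:**
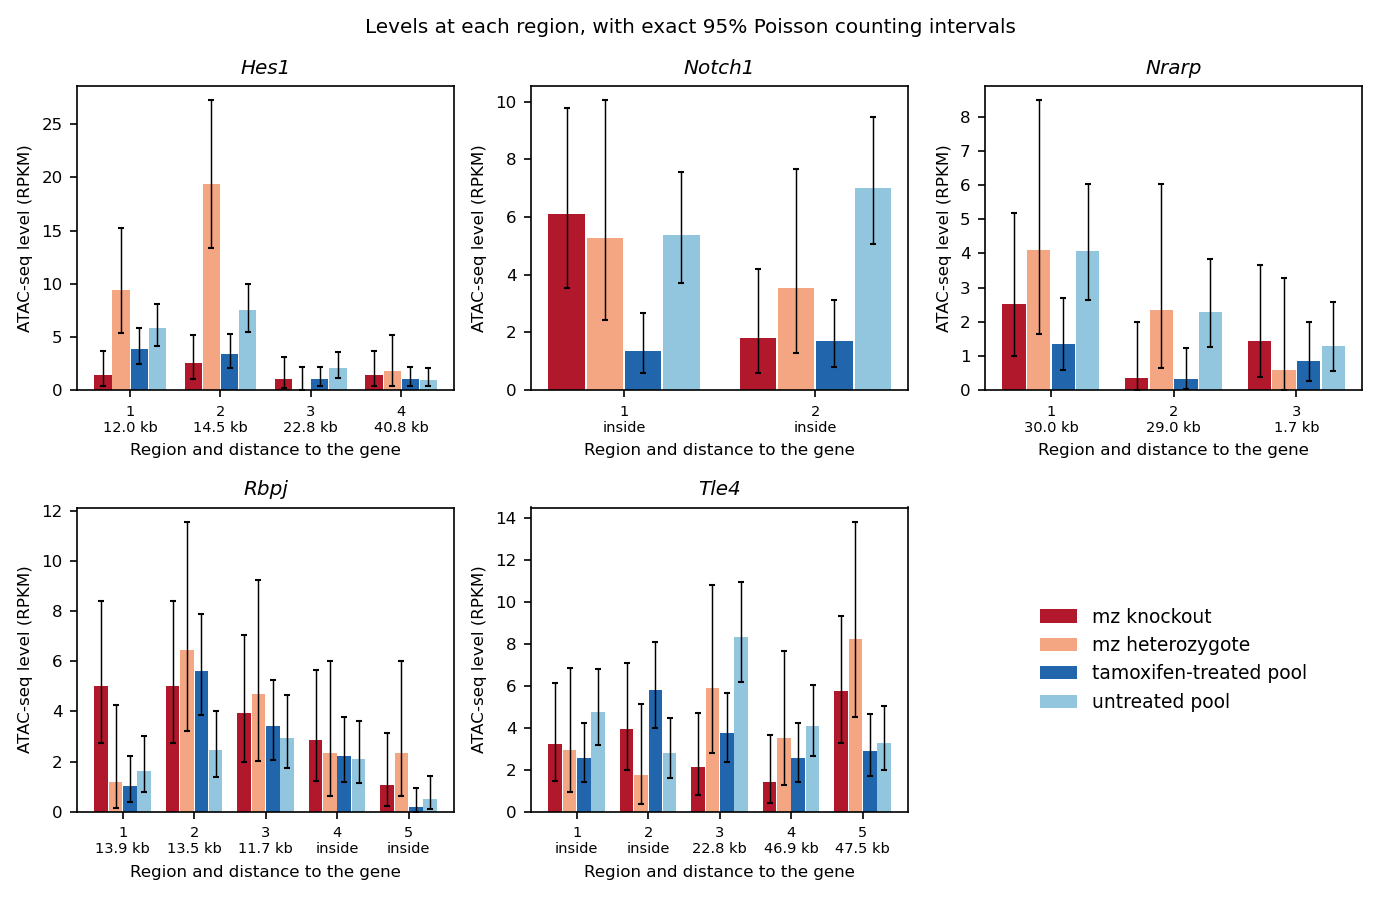
ATAC-seq level (RPKM, bars) at every NR5A2-bound region of Hes1, Notch1, Nrarp, Rbpj and Tle4 in the 4 merged columns, with exact 95% Poisson intervals of the reads, which cover counting error only. Regions are numbered along the chromosome with the distance to the gene below. At Hes1 region 2 the mz heterozygote bar (19.4 RPKM) stands apart from the mz knockout bar (2.51 RPKM), and at Notch1 the untreated pool stands above the treated pool in both regions.

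Over the 8 receptor regions the mz ratio was 0.833 (0.520 to 1.35), above that of all regions, and the inducible ratio was 0.380 (0.274 to 0.520), the lowest of the 7 role groups. That rank leaned on Notch1, which held 76 of the 151 reads in the untreated pool and 18 of 55 in the treated. The inducible ratios at Notch2, Notch3 and Notch4 were 0.348, 0.736 and 0.461. Notch1, which encodes 1 of the 4 mammalian Notch receptors, held both receptor calls. Its region 1, inside the gene (chromosome 2, 26458501 to 26459024), had 6.10 RPKM in mz knockouts (17 reads) and 5.29 RPKM in mz heterozygotes (9 reads), and 1.36 RPKM in the treated pool (8 reads) and 5.39 RPKM in the untreated pool (33 reads). The treated pool was lower (ratio 0.253, interval 0.101 to 0.558, adjusted p = 0.00719, exact binomial test). The mz ratio of 1.15 had an interval from 0.486 to 2.94 and did not pass. Region 2 of Notch1 (chromosome 2, 26463204 to 26463690), 4180 bp further on and also inside the gene, had 1.79 RPKM in mz knockouts and 3.52 RPKM in mz heterozygotes, and 1.70 RPKM in the treated pool (10 reads) and 7.02 RPKM in the untreated pool (43 reads). Here too the treated pool was lower (ratio 0.242, interval 0.109 to 0.490, adjusted p = 0.00107, exact binomial test).

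Under the median scaling region 2 still passed and region 1 did not (adjusted p = 0.0306 and 0.0992, exact binomial test), and with the summed ratio set to 1 neither passed (adjusted p = 0.101 and 0.182). Together the Notch1 regions had an inducible ratio of 0.247 (0.139 to 0.417), beside a mz ratio of 0.895 (0.444 to 1.86). The same test between the series gave an unadjusted exact p of 0.00960 for region 1 and 0.303 for region 2, and neither passed after adjustment (adjusted p = 0.991 and 1, exact test on the noncentral hypergeometric distribution). Of all listed regions, 3 passed that test (0.0177%), and 0 of the 64 did. At an unadjusted p under 0.05 it was met by 7 of the 64 regions (10.9%), a larger share than the 4.41% of all regions. Notch1 regions 1 and 2 lay 45.1 and 40.4 kb downstream of the nearest start listed for the gene in RefSeq.

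Notch4, best known for its role in blood vessels, had 3 regions inside the gene that are not accessible by the authors' class, and a summed mz ratio of 0.567 (0.245 to 1.30) and inducible ratio of 0.461 (0.269 to 0.767). Its most accessible region (chromosome 17, 34576761 to 34577082) had 1.43 RPKM in mz knockouts and 2.94 RPKM in mz heterozygotes, and 1.87 RPKM in the treated and 4.41 RPKM in the untreated pool. Notch3 had 2 regions, of which the more accessible one was at 1.43 RPKM in mz knockouts and 1.17 RPKM in mz heterozygotes, and at 1.19 RPKM in the treated and 1.96 RPKM in the untreated pool. The single Notch2 region had 1.43 RPKM in mz knockouts and 0.587 RPKM in mz heterozygotes, and 0.340 RPKM in the treated and 0.979 RPKM in the untreated pool. Those of Notch2 and Notch3 rest on 1 to 4 reads per mz column, too few to show a difference at this depth.

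Among the ligands only Dll3 and Jag2 had a region within 50 kb. Dll3 encodes an atypical Delta family member that acts inside the cell and inhibits Notch. Its region, inside the gene (chromosome 7, 28297886 to 28298616), had 1.79 RPKM in mz knockouts (5 reads) and 6.46 RPKM in mz heterozygotes (11 reads), and 1.70 RPKM in the treated (10 reads) and 4.24 RPKM in the untreated pool (26 reads). The ratios were 0.278 (0.0756 to 0.866) and 0.401 (0.173 to 0.859), and neither passed the adjusted test (adjusted p = 0.232 and 0.108, exact binomial test). Jag2, the gene of a Jagged ligand, had 1 region 4.71 kb away with 1.08 RPKM in mz knockouts and 1.17 RPKM in mz heterozygotes, and 0.851 RPKM in the treated and 0.816 RPKM in the untreated pool. Its level was low although its CUT&RUN signal, 10.0 RPKM, lay at percentile 93.6 of the table.

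The glycosyltransferases add sugars to the receptors and set how they respond to ligands. Over 6 regions the mz ratio was 0.440 (0.278 to 0.688) and the inducible ratio 0.539 (0.388 to 0.743), without a called region in either series. Pofut1, which encodes the O-fucosyltransferase that Notch needs to be active, had 3 regions and ratios of 0.509 (0.267 to 0.961) and 0.521 (0.316 to 0.842). Its most accessible region (chromosome 2, 153251512 to 153251938) had 1.79 RPKM in mz knockouts and 6.46 RPKM in mz heterozygotes, and 1.70 RPKM in the treated and 3.10 RPKM in the untreated pool. Lfng, the Lunatic fringe gene, had 2 regions and a mz ratio of 0.244 (0.0776 to 0.666). The one inside the gene (chromosome 5, 140611564 to 140611723) had 1.79 RPKM in mz knockouts and 5.87 RPKM in mz heterozygotes, and 1.53 RPKM in the treated and 2.61 RPKM in the untreated pool. Mfng, the Manic fringe gene, had 1 region inside it with 3.59 RPKM in mz knockouts and 6.46 RPKM in mz heterozygotes, and 3.57 RPKM in the treated and 7.02 RPKM in the untreated pool.

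The genes of the enzymes that cut the receptors had 5 regions, with a mz ratio of 0.977 (0.492 to 2.00) and an inducible ratio of 0.503 (0.338 to 0.738). None was called. Adam17, the gene of a metalloprotease that sheds the ectodomain of many receptors, had 3 accessible regions inside it, summing to 5.38 RPKM in mz knockouts and 8.22 RPKM in mz heterozygotes, and to 4.42 RPKM in the treated and 9.47 RPKM in the untreated pool. Its region of highest mean level had 2.51 RPKM in mz knockouts and 2.94 RPKM in mz heterozygotes, and 2.04 RPKM in the treated and 4.41 RPKM in the untreated pool. The region near Adam10, the gene of the protease that cuts ligand-bound Notch, lay 10.1 kb from the gene and had 2.51 RPKM in mz knockouts (7 reads) and 0.587 RPKM in mz heterozygotes (1 read), and 2.04 RPKM in the treated and 2.77 RPKM in the untreated pool. Its mz ratio of 4.27 had an interval from 0.549 to 193. Psen2, the gene of a catalytic subunit of gamma-secretase, had 1 region inside its span, at an offset of −0.743 kb from the nearest listed start. It had 0.717 RPKM in mz knockouts and 0 in mz heterozygotes, and 0.510 RPKM in the treated and 1.63 RPKM in the untreated pool.

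Ubiquitin ligases and endocytic adaptors control how much receptor and ligand is at the cell surface. The ratios over the 15 regions here, 0.624 (0.461 to 0.846) for the mz series and 0.726 (0.591 to 0.889) for the inducible series, were near those of all regions, with 0 calls in either. Itch, which encodes a HECT-type ubiquitin ligase, had 7 regions, the most of any gene, 3 of them accessible. They summed to 10.8 RPKM in mz knockouts and 21.1 RPKM in mz heterozygotes, a ratio of 0.509 (0.303 to 0.850), and to 7.15 RPKM in the treated and 14.5 RPKM in the untreated pool, a ratio of 0.492 (0.332 to 0.718). The most accessible (chromosome 2, 155141798 to 155142355) had 3.95 RPKM in mz knockouts and 8.22 RPKM in mz heterozygotes, and 1.70 RPKM in the treated and 3.43 RPKM in the untreated pool. Fbxw7, the F-box protein gene that targets the Notch intracellular domain for degradation, had 1 region inside it with 5.38 RPKM in mz knockouts and 8.22 RPKM in mz heterozygotes, and 4.59 RPKM in the treated and 6.86 RPKM in the untreated pool.

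Mib1 and Mib2 encode the Mind bomb ligases that internalise ligands. The Mib2 region, 1.03 kb from the gene, had 5.74 RPKM in mz knockouts and 8.22 RPKM in mz heterozygotes, and 2.04 RPKM in the treated and 4.41 RPKM in the untreated pool. That of Mib1 had 3.23 RPKM in mz knockouts and 4.11 RPKM in mz heterozygotes, and 6.13 RPKM in the treated and 4.73 RPKM in the untreated pool. Neither passed the adjusted test, and the inducible interval of the Mib2 ratio, 0.214 to 0.946, lay below 1. Numb and Numbl encode endocytic inhibitors of Notch. The most accessible Numb region had 2.51 RPKM in mz knockouts and 1.76 RPKM in mz heterozygotes, and 0.681 RPKM in the treated and 2.12 RPKM in the untreated pool. The Numbl region (chromosome 7, 27269338 to 27269573) had 3.23 RPKM in mz knockouts and 5.29 RPKM in mz heterozygotes, and 4.76 RPKM in the treated pool (28 reads) and 2.12 RPKM in the untreated pool (13 reads). With an inducible ratio of 2.25 (1.13 to 4.72), Numbl was the single gene whose interval lay above 1, but it did not pass the adjusted test (adjusted p = 0.137, exact binomial test). It passed as higher with the summed ratio of all regions set to 1 (adjusted p = 0.0487, exact binomial test). The Dtx2 region, at a Deltex ligase gene, had 1.08 RPKM in mz knockouts and 1.76 RPKM in mz heterozygotes, and 1.19 RPKM in the treated and 2.61 RPKM in the untreated pool.

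**Figure D3:**
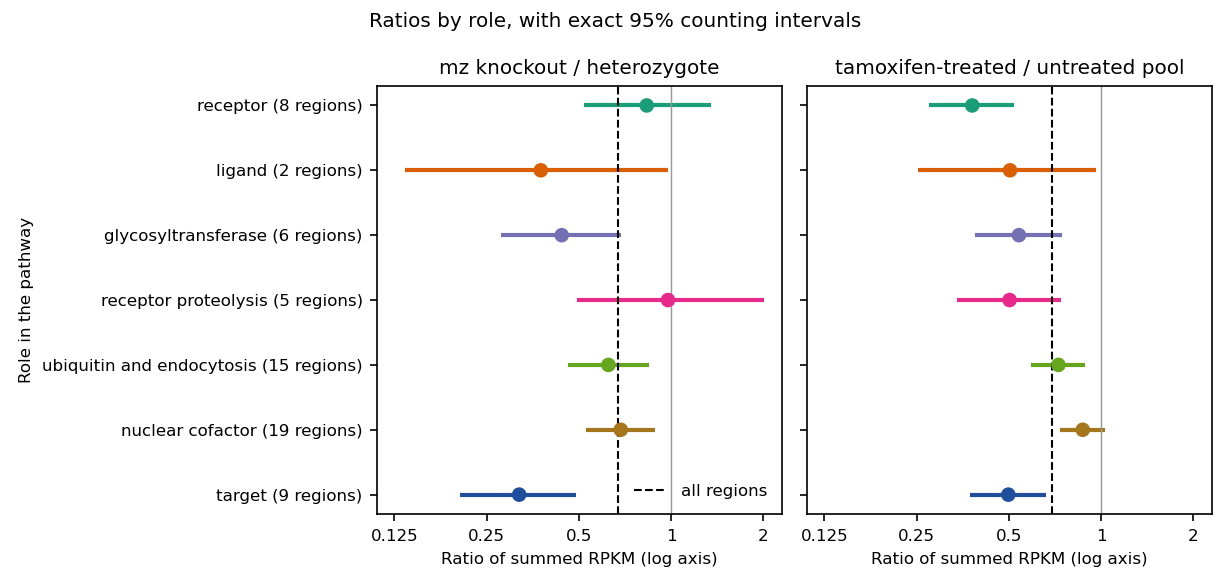
Ratio of summed RPKM for each role group, mz knockout over heterozygote on the left and treated over untreated pool on the right, on a log axis. Bars are exact 95% counting intervals and dashed lines are the ratios of all 16958 regions (0.668 and 0.694). Target genes lie lowest in the mz series (0.319), receptors lowest in the inducible series (0.380), and nuclear cofactors are highest in the inducible series (0.871). Hes1 (mz ratio 0.211) sets the rank of the targets, and Notch1 (inducible ratio 0.247) that of the receptors.

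The nuclear cofactors had 19 regions, with a mz ratio of 0.685 (0.528 to 0.888) and an inducible ratio of 0.871 (0.737 to 1.03). Rbpj, the gene of the DNA-binding partner of Notch, had ratios near or above 1. Its 5 regions summed to 17.9 RPKM in mz knockouts and 17.0 RPKM in mz heterozygotes, a ratio of 1.05 (0.653 to 1.73), and to 12.4 RPKM in the treated and 9.63 RPKM in the untreated pool, a ratio of 1.29 (0.903 to 1.85). Rbpj was the single gene of the 30 whose summed level was above its control in both series. Of its 5 regions, 2 were above their control in the mz series, 3 in the inducible series and only 1 in both. The inducible interval of the summed Rbpj ratio excludes the ratio of all regions, 0.694, and the mz interval does not exclude 0.668. Rbpj region 2 (chromosome 5, 53542198 to 53542401), 13.5 kb from the gene, had 5.02 RPKM in mz knockouts and 6.46 RPKM in mz heterozygotes, and 5.62 RPKM in the treated pool (33 reads) and 2.45 RPKM in the untreated pool (15 reads). Its inducible ratio of 2.29 (1.21 to 4.54) did not pass as deposited (adjusted p = 0.0883, exact binomial test), but passed with the columns scaled to a median log2 ratio of 0 (adjusted p = 0.0372) and with the summed ratio of all regions set to 1 (adjusted p = 0.0269). This region carried a CUT&RUN signal of 14.1 RPKM, at percentile 98.3 of the table, and its summit was not moved onto an Nr5a2 motif by the authors. Region 1 of Rbpj, 184 bp away, had 5.02 RPKM in mz knockouts and 1.17 RPKM in mz heterozygotes, and 1.02 RPKM in the treated and 1.63 RPKM in the untreated pool, and did not pass in either series.

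Tle4, which encodes a Groucho corepressor, had 5 regions and summed ratios of 0.739 (0.470 to 1.17) and 0.756 (0.581 to 0.981). Region 3, 22.8 kb from the gene (chromosome 19, 14620868 to 14621177), had 2.15 RPKM in mz knockouts and 5.87 RPKM in mz heterozygotes, and 3.74 RPKM in the treated pool (22 reads) and 8.32 RPKM in the untreated pool (51 reads). The treated pool was lower (ratio 0.450, interval 0.260 to 0.755, adjusted p = 0.0305, exact binomial test), and its mz ratio of 0.366 (0.109 to 1.11) did not pass. The inducible call was lost under both scalings. Region 2, inside Tle4 (chromosome 19, 14555919 to 14556147), was above its control in both series, with 3.95 RPKM in mz knockouts and 1.76 RPKM in mz heterozygotes, and 5.79 RPKM in the treated and 2.77 RPKM in the untreated pool. It did not pass as deposited (inducible adjusted p = 0.108, exact binomial test), and passed as higher with the summed ratio of all regions set to 1 (adjusted p = 0.0316). The region of highest mean level at Tle4, 47.5 kb away, had 5.74 RPKM in mz knockouts and 8.22 RPKM in mz heterozygotes, and 2.89 RPKM in the treated and 3.26 RPKM in the untreated pool. Tle3 and Tle1 had 1 weak region each. That of Tle3 had 1.08 RPKM in mz knockouts and 3.52 RPKM in mz heterozygotes, and 0.340 RPKM in the treated and 1.14 RPKM in the untreated pool, and that of Tle1 was at 0 in both mz columns and at 2 reads in each pool.

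The coactivator and corepressor genes Maml2, Maml3, Snw1 and Spen had no called region. Spen, the gene of a large RBPJ-binding corepressor, had its accessible region inside the gene (chromosome 4, 141505905 to 141506080) at 1.43 RPKM in mz knockouts and 5.87 RPKM in mz heterozygotes, and at 1.36 RPKM in the treated and 3.92 RPKM in the untreated pool. The intervals of both ratios, 0.244 (0.0559 to 0.847) and 0.348 (0.135 to 0.800), lay below 1, while the adjusted p of 0.202 and 0.0826 (exact binomial test) did not pass. Maml3, a Mastermind coactivator gene, had at its most accessible region 0.717 RPKM in mz knockouts (2 reads) and 5.29 RPKM in mz heterozygotes (9 reads), and 2.38 RPKM in the treated and 2.45 RPKM in the untreated pool. Its neighbour 209 bp away was at 0.681 RPKM in the treated and 2.94 RPKM in the untreated pool (adjusted p = 0.0600, exact binomial test). The Maml2 region with the highest mean had 0.359 RPKM in mz knockouts and 2.35 RPKM in mz heterozygotes, and 1.53 RPKM in the treated and 3.10 RPKM in the untreated pool. The region of Snw1, which encodes a splicing and transcription cofactor also called SKIP, lay 16.7 kb away and had 6.46 RPKM in mz knockouts and 9.40 RPKM in mz heterozygotes, and 6.13 RPKM in the treated and 3.59 RPKM in the untreated pool.

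Taking the 30 genes by their summed levels, 19 were below their control in both series, 4 in the mz series alone, 5 in the inducible series alone and 1 in neither, and Tle1 had no mz reads. These counts are a description, since the summed level of all regions was also below its control in both series. Region by region and without a test, 44 of the 64 (68.75%) were below their control in the mz series, beside 64.3% of all regions. In the inducible series 48 (75%) were below it, beside 74.4%. In both series 35 of the 64 (54.7%) were below, beside 50.5% of all regions. In the authors' deposited table, 33 of the 64 regions (51.6%) are classed as losing accessibility, beside 41.5% of all regions. Another 20 (31.2%) are classed as unchanged, beside 41.6%, and 11 (17.2%) as gaining it, beside 16.9%. The class follows the mean of the ratios of both series, so it is no separate evidence.

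**Figure D4:**
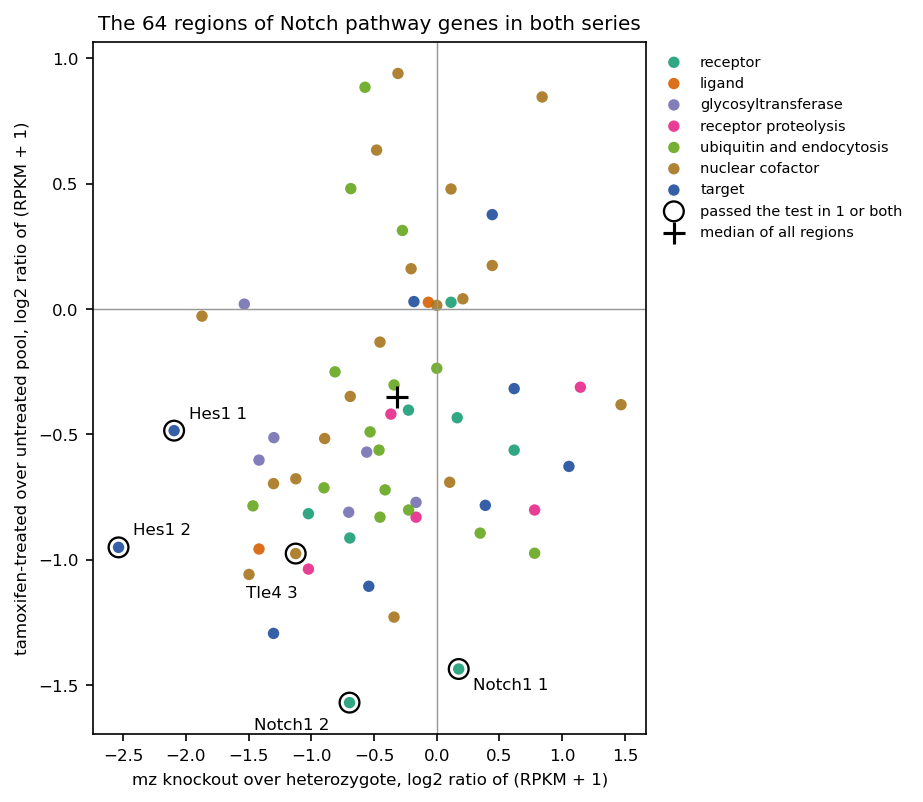
Log2 ratio of (RPKM + 1) at each of the 64 regions, mz knockout over heterozygote on the horizontal and treated over untreated pool on the vertical axis, coloured by role. Circles mark the 5 regions that passed the exact binomial test in 1 or both series, and the cross marks the median of all regions (−0.32 and −0.35). Hes1 regions 1 and 2 lie farthest to the left and the Notch1 regions lowest.

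The 3 regions whose profile over the 4 columns was most like that of Hes1 region 2 were Pofut1 region 1, Lfng region 2 and Spen region 2. Likeness was the Euclidean distance between the 4 RPKM values, each divided by their sum, among the 14 other regions with at least 10 reads in each control column, and the distances were 0.117, 0.123 and 0.154. The other accessible Hes1 region had rank 5, at 0.170, after the Dll3 region at 0.162. The order rests on few reads, 4 to 5 per region in mz knockouts.

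Several features that the rule did not use were looked at. By the authors' class 32 of the 64 regions were accessible, beside 48.5% of all regions. The 32 accessible regions had a mz ratio of 0.572 (0.481 to 0.678), beside 0.650 for all accessible regions, and an inducible ratio of 0.680 (0.606 to 0.763), beside 0.692. The 32 not accessible ones had ratios of 0.642 (0.482 to 0.855) and 0.563 (0.468 to 0.676), beside 0.734 and 0.698. All 5 regions with a call were accessible, and reads were fewer in the other class. Over the whole table most regions called lower were accessible too, 256 of 293 in the mz series and 852 of 1081 in the inducible series. Inside the gene lay 34 regions (53.1%), beside 50.9% of all regions that lay inside a gene. Within 1 kb of an end of any protein-coding gene lay 1 region (1.56%), at Notch1, beside 6.72% of all regions. None of the 64 overlapped a RefSeq promoter window (GRCm38.p6, 250 bases before to 50 after a start), where 35 of the 44 genes are listed. No promoter is therefore shown.

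The median CUT&RUN signal of NR5A2, an antibody-directed cleavage assay of an earlier study, was 5.25 RPKM over the 64 regions, beside 4.15 RPKM over all, with a range from 0.781 RPKM at Tle1 to 14.4 RPKM inside Maml2. For the 38 regions whose signal exceeded the median of the table, the mz ratio was 0.554 (0.465 to 0.659) and the inducible ratio 0.568 (0.505 to 0.640). The 26 regions at or under it had ratios of 0.690 (0.522 to 0.912) and 0.846 (0.711 to 1.01). Over all regions the same split gave 0.646 and 0.672 above the median, and 0.710 and 0.730 at or under it. The more strongly bound regions had the lower ratios, among the Notch loci as over the whole table. The intervals of the 2 classes of Notch loci did not overlap in the inducible series and overlapped in the mz series. Rbpj region 2 and Maml2 region 1 (percentile 98.5) were both among the most strongly bound and had inducible ratios of 2.29 and 0.494.

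The authors moved the summit onto an Nr5a2 motif in 57 of the 64 regions (89.1%), beside 89.3% of all regions. No genome sequence was used, so what such a move means was checked in promoter windows over the whole table. Of 114 moved summits that fell in such a window, 67 (58.8%) had AAGGNCA on either strand within 5 bases, beside 6 of 146 (4.11%) for the original summits of moved regions. The same letters occur anywhere in 20.3% of all 32851 windows. The 57 Notch regions with a moved summit had ratios of 0.580 (0.497 to 0.677) and 0.622 (0.561 to 0.689), and the 7 with an unmoved summit 0.673 (0.426 to 1.07) and 0.859 (0.635 to 1.16). Of those 7, 3 belonged to Rbpj.

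**Figure D5:**
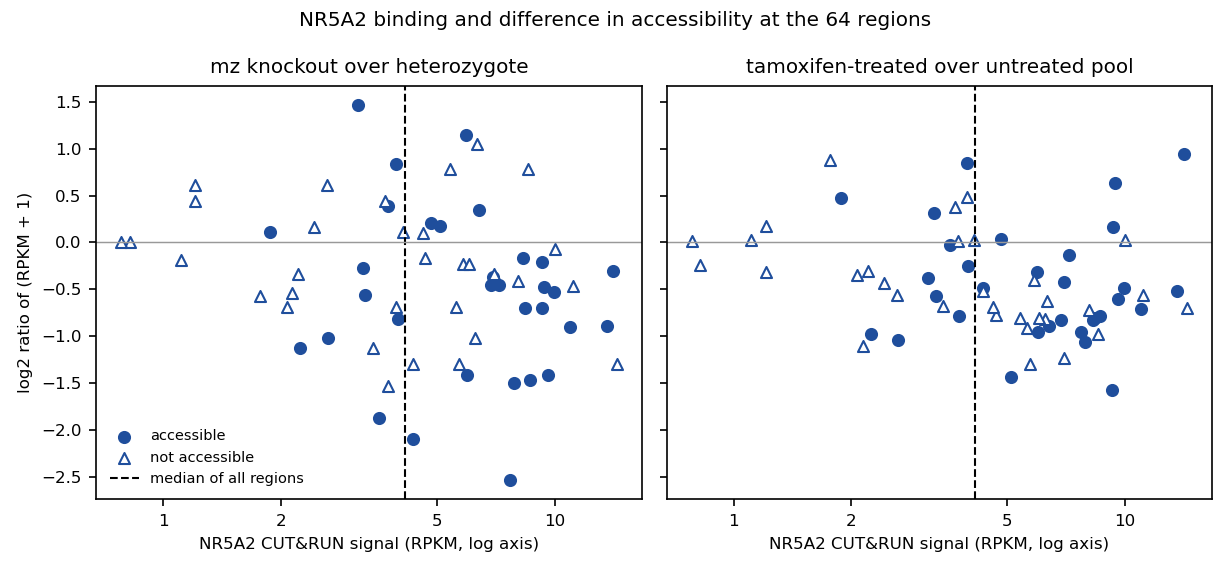
Log2 ratio of (RPKM + 1) of each of the 64 regions against its NR5A2 CUT&RUN signal (RPKM, log axis), mz series on the left and inducible series on the right. Filled circles are accessible and open triangles not accessible regions by the authors' class, and the dashed line is the median signal of all regions (4.15 RPKM). In the inducible series most regions right of the line lie below 0, with Rbpj region 2 and the Snw1 region as the highest exceptions.

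The rule stops at 50 kb. Just inside it, the Tle4 region at 46.9 kb had 1.43 RPKM in mz knockouts and 3.52 RPKM in mz heterozygotes, and the one at 47.5 kb is given above. Just outside it, the next region, 57.8 kb from Tle4, had 14.0 RPKM in mz knockouts and 13.5 RPKM in mz heterozygotes, and the one after it, 73.4 kb from Mib1, had 0.359 RPKM in mz knockouts and 2.35 RPKM in mz heterozygotes. In all, 10 regions had one of the genes as nearest but lay beyond 50 kb.

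Another 53 genes of the pathway, among them further gamma-secretase subunits, corepressors and target genes, were looked at as a list. Of these, 27 had a region, with 61 regions in all. Their mz ratio was 0.571 (0.490 to 0.665) and their inducible ratio 0.706 (0.633 to 0.788), close to those of the Notch loci above. In the mz series 2 of the 61 regions were lower (3.28%), beside 1.73% of all regions, and 0 were higher, beside 0.0236%. In the inducible series 1 was lower (1.64%), beside 6.37% of all regions, and 1 was higher (1.64%), beside 0.0767%. A region called lower in mz knockouts (adjusted p = 0.0475, exact binomial test) lay near Cdx2, a trophectoderm factor gene, and was known when the list was made, with 0.717 RPKM in mz knockouts and 6.46 RPKM in mz heterozygotes, and 2.21 RPKM in the treated and 2.29 RPKM in the untreated pool. The region that rose lay inside Kdm5a, the gene of a histone demethylase found with RBPJ, with 3.91 RPKM in the treated pool and 0.816 RPKM in the untreated pool (adjusted p = 0.0161, exact binomial test). Its mz knockout level was 2.87 RPKM, against 3.52 RPKM in mz heterozygotes.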

How the data were processed

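ATAC-seq libraries of 13 mz knockout and 8 mz heterozygous embryos, 1 treated and 1 untreated pool (23 samples) were grouped by their titles. Per the submitters' processing notes, cutadapt, Bowtie2, MACS2 and mm10 were used. No source here gives versions or how reads were shifted, deduplicated or merged, and merging by reads would weight embryos by depth.

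The table the authors deposited gives RPKM per group, the CUT&RUN RPKM and the knockout-over-control ratio, which equalled (knockout + 0.01)/(control + 0.01) in RPKM within 5e-08. All ATAC-seq values were whole multiples of a step per column (tolerance 0.0001 of the step), whatever the width of a region, so they were not divided by it. If wider windows were counted, neighbours share reads, and 12 of the 64 regions lie within 1 kb of another.

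Merged columns hold no values per embryo, which limma or a count model would need, so reads were compared by exact binomial tests given the steps (scipy 1.17.1), adjusted over 16958 regions, and checked on simulated data. Ratios have Clopper-Pearson intervals. Log2 ratios used a pseudocount of 1 RPKM.

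The members, lists and tests were chosen with earlier results of these data known. Named regions are every called one, the highest by mean RPKM at each gene and all of Hes1. Nrarp region 2, Maml3 region 2, Rbpj region 1 and Tle4 region 2 were named after their values were seen. Gene symbols came from the RefSeq table (GRCm38.p6), where all 44 matched. Exons and introns were not annotated there. Of the other pathway genes, 1 with a called region is not reported here.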

Additional observations from a re-analysis of the deposited data

How the results depend on the processing

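Of the 6 calls, 5 were lost under 1 or both scalings. With the median log2 ratio of all regions set to 0, a shift of −0.32 for the mz series and −0.35 for the inducible series, the ratios of summed RPKM became 0.737 and 0.821, 1 mz region was lower, and 1 inducible region was lower and 1 higher. With the summed ratio set to 1 they became 0.882 and 0.928, 1 mz region was lower, and 0 inducible regions were lower and 3 higher. Hes1 region 2 passed in the mz series under both scalings (adjusted p = 0.00158 and 0.0106, exact binomial test), and Notch1 region 2 in the inducible series under the first alone. The calls of Hes1 region 1 in the mz series, and of Notch1 region 1, Tle4 region 3 and Hes1 region 2 in the inducible series, were lost under both. Within 10 kb of the genes (45 regions), 0 mz and 2 inducible regions were lower, beside 1.73% and 6.37% of all regions at any distance. A pseudocount of 0.1 RPKM moved the inducible median to −0.80, beside −0.53 over all regions. With at least 10 reads on average, 2 of 11 regions were lower in the mz series and 6 of 37 in the inducible series. Over all regions of the table with as many reads, 353 and 1144 were lower. How many regions of the table had as many reads was not counted, so these member counts have no background share beside them. Nrarp region 1 and Maml3 region 2 were added in the inducible series, where the adjustment covered fewer regions. Among the 32 accessible regions 2 and 4 were lower, beside 383 and 1073 of all 8228 accessible ones. In both settings 0 of the Notch loci were higher. With any 1 gene left out, the ratios lay between 0.551 and 0.650 (mz) and between 0.607 and 0.674 (inducible), and without Hes1 no mz region was called. No replicate could be left out and no paired analysis was possible because the columns are merged and carry no replicate numbers. Depth limits most regions: 53 of 64 had under 10 reads on average in the mz series, and 27 in the inducible one.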
